A study of Rattus norvegicus with 6 samples.

Results

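The miR-130 and miR-301 family was examined in small RNA libraries of circulating exosomes, the small membrane vesicles that cells release into blood. The family was taken by name as rno-miR-130a-3p, rno-miR-130b-3p, rno-miR-130b-5p, rno-miR-301a-3p and rno-miR-301b-3p, and all 5 were present among the 867 listed miRNA sequences. Male Sprague-Dawley rats of 6 to 8 weeks on a normal diet had received Naoxintong Capsule (NXT), a Chinese herbal preparation, at 1000 mg/kg/d (NXT-Exo, 5 libraries), or saline at 5 mL/kg/d (Ctl-Exo, 1 library, replicate 5), by gavage. By title every library followed 7 days of dosing, whereas another label field gives 7 to 11 days for NXT-Exo 1 to 5 in order and 11 days for Ctl-Exo 5. Which rats contributed serum to each library is not given in the sources used here. The authors give the ultracentrifuged serum as a total volume and stored the exosome solution in aliquots, so serum may have been pooled. The spread between NXT-Exo libraries may therefore be partly or wholly technical, and n counts libraries, not rats. No miRNA defines exosomes, so the labelled material could not be checked against markers of its own. With 1 Ctl-Exo library, the control group had no spread of its own.

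miRNAs are cut from both sides of a hairpin precursor as a 5p and a 3p arm, and usually a single arm is retained in the silencing complex. A miRNA recognises its target mRNAs mainly through its seed, bases 2 to 8. The 3p arms of this family are the arms usually described as active. They are known for repressing PPARG in fat and vascular cells, and miR-130a for repressing the homeobox genes GAX and HOXA5 in endothelial cells, where it promotes vessel growth. miR-301a is known for repressing NKRF, an inhibitor of NF-κB signalling.

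The mature sequences are shown to compare the seeds and the arms, written as DNA as the authors list them, 5′ to 3′, with the seed in capitals. The 4 members from the 3p arm share the seed AGTGCAA, and no other listed sequence carries it.
miR-130a-3p: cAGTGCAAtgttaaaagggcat
miR-130b-3p: cAGTGCAAtgatgaaagggcat
miR-301a-3p: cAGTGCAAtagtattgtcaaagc
miR-301b-3p: cAGTGCAAtggtattgtcaaagc
miR-130b-5p: aCTCTTTCcctgttgcactact
miR-301a-5p: gCTCTGACtttattgcactac

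miR-130a-3p and miR-130b-3p have the same base at 20 of 22 positions, and miR-301a-3p and miR-301b-3p at 22 of 23. Across the family, by contrast, miR-130a-3p matches miR-301a-3p at 12 of the first 22 positions, so the shared part is mainly the start. miR-130b-5p is the only member from a 5p arm and carries a different seed, CTCTTTC. miR-301a-5p is no member, and is shown because its level is set beside that of miR-301a-3p below. The mature sequence of 4 of the 5 members was also found under the same name in the RefSeq table of the rat assembly GRCr8.

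Both arms of miR-130a and miR-130b can be placed in their RefSeq hairpins (GRCr8), printed here because the arms of these hairpins were recovered in opposite proportions. The 5p arm is the first stretch in capitals and the 3p arm is the second.
Mir130a: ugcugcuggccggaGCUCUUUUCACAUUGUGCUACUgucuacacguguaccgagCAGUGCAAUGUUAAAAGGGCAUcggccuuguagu
Mir130b: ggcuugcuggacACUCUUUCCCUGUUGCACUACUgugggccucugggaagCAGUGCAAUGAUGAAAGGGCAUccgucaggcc

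In the RefSeq gene order, Mir301b and Mir130b are direct neighbours inside the same annotated gene, 2610318N02Rikl. Mir301a lies inside the annotated spans of Ska2 and Prr11, and Mir130a lies in no annotated gene, next to Ypel4.

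Counts are given as CPM, listed reads of a library scaled to a common total with TMM factors (0.932 to 1.09). The listed reads numbered 1168686 to 3781718 in NXT-Exo and 1890463 in Ctl-Exo 5, so a single read equalled 0.261 to 0.782 CPM in the former and 0.544 CPM in the latter. Levels of 3 reads or fewer, 1.63 CPM in Ctl-Exo 5, were regarded as lying at the floor of detection. Intervals and floors cover counting error only. NXT-Exo 1 stood apart from the other libraries, with a chi-square per degree of freedom of 133 to 272 against each of them over all miRNAs, where the other pairs had 38.1 to 94.8. The lowest value was between NXT-Exo 2 and Ctl-Exo 5, which belong to different groups. Of the 5 members, 3 had a mean of at least 10 reads per library (miR-130b-5p, miR-130a-3p and miR-130b-3p).

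The family was of moderate to low abundance, and its most abundant member was not a 3p arm. Over the 6 libraries miR-130b-5p had a mean of 111 CPM, miR-130a-3p 56.3 CPM, miR-130b-3p 18.6 CPM, miR-301a-3p 3.16 CPM and miR-301b-3p 0.877 CPM. By mean CPM these stood at places 167, 203, 289, 494 and 685 of the 865 miRNAs with reads.

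Neighbouring members were compared within each library, as the log2 ratio of their reads plus 0.5. An exact two-sided permutation test flipped the signs of these ratios over the 6 libraries, whose smallest possible p is 0.0312. The 4 p-values were adjusted by Benjamini-Hochberg. As the neighbours were set by mean CPM in these same 6 libraries, the p-values are no independent support for the order. The unadjusted p behind each adjusted p of 0.0417 was the smallest possible. miR-130b-5p exceeded miR-130a-3p in 6 of 6 libraries, by 0.98 ± 0.51 on the log2 scale (SD, n = 6, exact permutation adjusted p = 0.0417). miR-130a-3p exceeded miR-130b-3p in 6 of 6, by 1.66 ± 0.53 (SD, n = 6, exact permutation adjusted p = 0.0417). The step from miR-130b-3p down to miR-301a-3p was larger, at 2.68 ± 0.83 (SD, n = 6, exact permutation adjusted p = 0.0417). The last neighbours, miR-301a-3p and miR-301b-3p, were not separated by the test, with a log2 ratio of 1.75 ± 1.66 and miR-301a-3p higher in 4 of 6 libraries (SD, n = 6, exact permutation adjusted p = 0.125). The order is one of reads, and how efficiently each sequence was ligated and amplified was not measured.

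**Figure D1:**
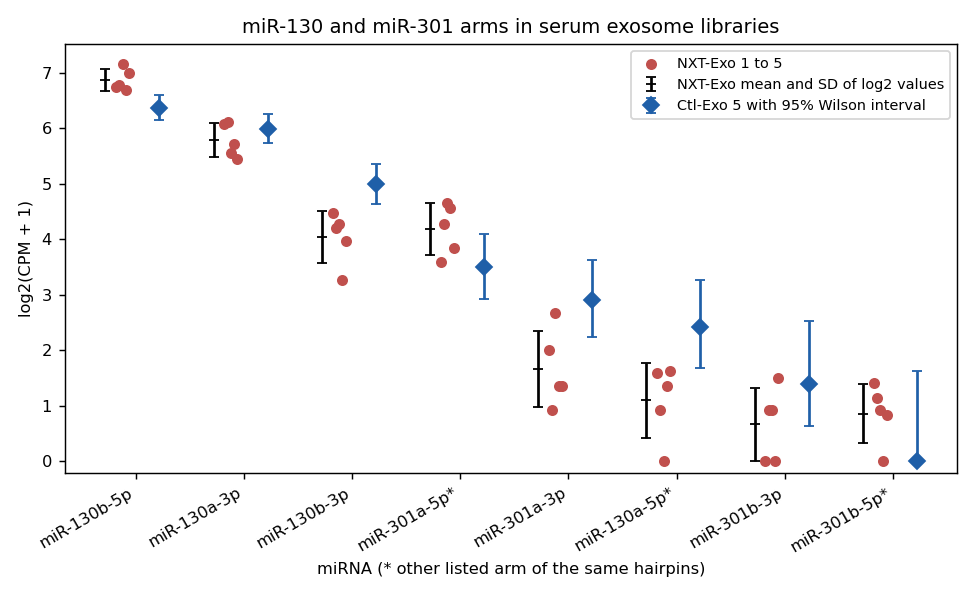
Levels as log2(CPM + 1) on the vertical axis for the 5 members and the other listed arms of their hairpins (marked with an asterisk) on the horizontal axis, with a point per NXT-Exo library, the mean and SD of the NXT-Exo log2 values, and Ctl-Exo 5 with its 95% Wilson interval. The blue Ctl-Exo 5 marker lies below all 5 NXT-Exo points for miR-130b-5p and miR-301a-5p and above all 5 for miR-130b-3p, miR-301a-3p and miR-130a-5p.

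The question put to the libraries was whether exosomes of NXT-treated rats carried other amounts of these miRNAs than exosomes of saline-treated rats. In the 2 arms of miR-130b the mean moved in opposite directions, the 5p arm being higher and the 3p arm lower in all 5 NXT-Exo libraries than in Ctl-Exo 5. miR-130a-3p, the most abundant 3p arm, overlapped. No difference reached significance in a model across all miRNAs. Without NXT-Exo 1 the log2 differences were 0.55 for miR-130b-5p, -1.02 for miR-130b-3p, -0.26 for miR-130a-3p and -1.17 for miR-301a-3p.

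miR-130b-5p, the arm that accompanies the better known miR-130b-3p, was at 106, 109, 142, 102 and 126 CPM in NXT-Exo 1 to 5 and at 81.7 CPM in Ctl-Exo 5, whose 95% Wilson interval ran from 69.6 to 95.8 CPM. Every NXT-Exo library lay above Ctl-Exo 5 and above its interval, with NXT-Exo 3 the highest. The NXT-Exo mean of 117 ± 16.7 CPM (SD, n = 5) was 1.44 times the level of Ctl-Exo 5, a log2 difference of 0.52 on the log2(CPM + 1) scale, beside an SD of 0.20 in NXT-Exo, so that it exceeded the spread.

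miR-130b-3p, the shared-seed arm of the same hairpin, was at 21.3, 17.5, 18.4, 8.60 and 14.6 CPM in NXT-Exo 1 to 5 and at 31.0 CPM, with an interval of 24.0 to 40.2 CPM, in Ctl-Exo 5. Here all 5 NXT-Exo libraries lay below Ctl-Exo 5 and below its interval, with NXT-Exo 4 the lowest at 11 reads. The NXT-Exo mean of 16.1 ± 4.83 CPM (SD, n = 5) was 0.518 times the level of Ctl-Exo 5. The log2 difference of -0.91 was larger than the SD of 0.47.

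For miR-130a-3p the groups overlapped. Its level was 66.7, 68.7, 45.9, 51.6 and 42.5 CPM in NXT-Exo 1 to 5 and 62.6 CPM, with an interval of 52.2 to 75.2 CPM, in Ctl-Exo 5, with 2 of the NXT-Exo values above the control and 3 below. The NXT-Exo mean of 55.1 ± 12.0 CPM (SD, n = 5) gave a log2 difference of -0.18, smaller than the SD of 0.31.

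The miR-301 members were near the floor. miR-301a-3p had 9, 3, 12, 2 and 6 reads in NXT-Exo 1 to 5 and 12 reads in Ctl-Exo 5, which corresponds to 2.49 ± 1.80 CPM (SD, n = 5) against 6.53 CPM (95% Wilson interval 3.74 to 11.4 CPM). Each NXT-Exo library was lower, with a log2 difference of -1.11 beside an SD of 0.68, and NXT-Exo 3 at 5.40 CPM lay inside the Ctl-Exo 5 interval. miR-301b-3p had 0, 3, 2, 0 and 7 reads in NXT-Exo 1 to 5 and 3 in the control. As its NXT-Exo mean of 0.726 CPM and Ctl-Exo 5 were both at or under the floor, no fold is given and no difference was detectable at this depth.

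A miRNA was counted as apart when the means differed at least 2-fold on the log2(CPM + 1) scale and Ctl-Exo 5 lay outside the NXT-Exo range. By this rule 1 of the 5 members, miR-301a-3p, was apart, against 99 of the 865 miRNAs with reads (11.4%). That member rests on few reads, with 2 of its libraries at or under the floor. With a pseudocount of 10 in place of 1 its log2 difference was -0.41 and the count was 0. The count also fell to 0 without NXT-Exo 2 and rose to 2, with miR-130b-3p added, without NXT-Exo 1.

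Without a condition on the fold, Ctl-Exo 5 was below all NXT-Exo libraries for 1 of the 3 members with a mean of at least 10 reads (miR-130b-5p) and above all for 1 (miR-130b-3p). Over the 467 miRNAs with such a mean, Ctl-Exo 5 was below in 21.6%, above in 15.8% and at either end in 37.5%. The median log2 difference was -0.18 over these 3 members, beside 0.03 over the 467 miRNAs. Over all 5 members the median falls on miR-301b-3p, which was at the floor, and is not given.

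edgeR's quasi-likelihood test was run over the 467 miRNAs, under the assumption that the single Ctl-Exo library varies as the NXT-Exo libraries do. At an adjusted p under 0.05 it called 0 of them (0%), and 24 had an unadjusted p under 0.05 (29 with DESeq2, which also called 0). For miR-130b-5p edgeR gave a log2 fold change of 0.52 (unadjusted p = 0.0714, Benjamini-Hochberg adjusted p = 0.740), and for miR-130b-3p -0.93 (unadjusted p = 0.0649, adjusted p = 0.740 in edgeR). For miR-130a-3p the edgeR log2 fold change was -0.18 with an adjusted p of 0.971.

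**Figure D2:**
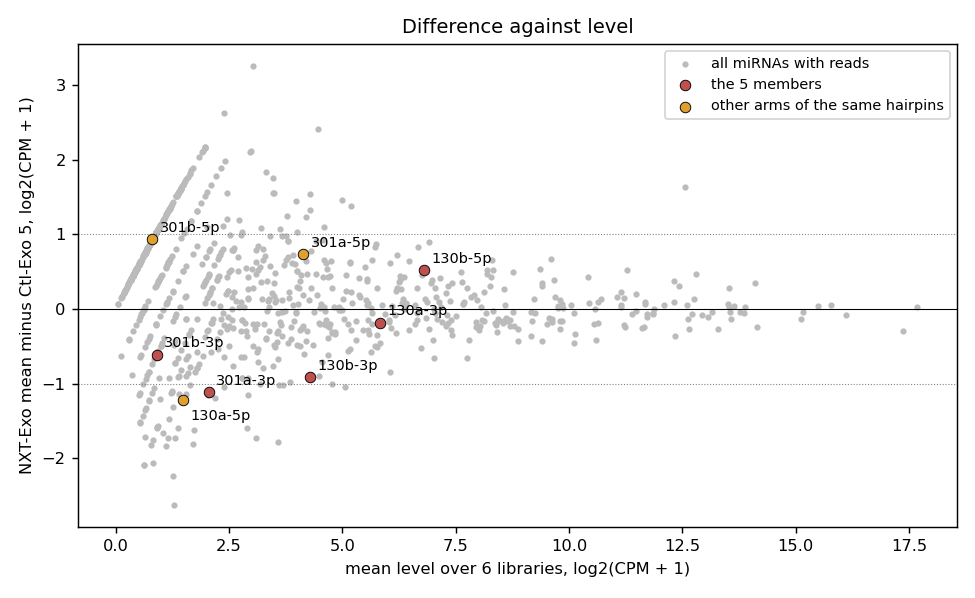
NXT-Exo mean minus Ctl-Exo 5 on the log2(CPM + 1) scale (vertical) against the mean level over the 6 libraries on the same scale (horizontal), with a grey point for each of the 865 miRNAs with reads, red points for the members and yellow points for the other arms of their hairpins. Dotted lines mark 2-fold. miR-130b-5p at 0.52 and miR-130b-3p at -0.91 lie on opposite sides of 0, and the spread of grey points widens towards low levels.

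The balance of the arms does not depend on how libraries are scaled, since both arms are counted in the same library. miR-130b was recovered mainly as its 5p arm and miR-130a almost wholly as its 3p arm. Summed over the 6 libraries, miR-130b had 1763 reads of the 5p arm and 287 of the 3p arm, so that 86.0% (95% Wilson interval 84.4 to 87.4%) came from 5p. For miR-130a, 27 reads of miR-130a-5p stood beside 874 of miR-130a-3p, a 5p share of 3.00% (2.07 to 4.32%). miR-301a resembled miR-130b, with 247 reads of miR-301a-5p, 44 of miR-301a-3p and a 5p share of 84.9% (80.3 to 88.5%). The direction was the same in 6 of 6 libraries for each of these 3 hairpins. The intervals are for summed reads and leave out the spread between libraries. For miR-130b the share ran from 72.5% in Ctl-Exo 5 to 92.3% in NXT-Exo 4. For miR-301b, 14 reads of 5p and 15 of 3p were too few to give a preference (48.3%, 31.4 to 65.6%). Of the 114 hairpins with both arms listed, reads in every library and a mean of at least 10 reads, 68 had most of their reads from the 5p arm.

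In NXT-Exo 1 to 5 the 5p share of miR-130b was 83.2%, 86.2%, 88.5%, 92.3% and 89.6%, and in Ctl-Exo 5 it was 72.5% (95% Wilson interval 66.0 to 78.1%). The Ctl-Exo 5 share was thus below every NXT-Exo library, and its interval overlapped none of theirs. This corresponds to 7.90 ± 2.64 reads of 5p per read of 3p (SD, n = 5) after NXT and 2.63 in the control. The mean share in NXT-Exo exceeded that of Ctl-Exo 5 by 15.5 percentage points, against an SD of 3.42 points.

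The 5p share of miR-301a was 78.6%, 95.3%, 81.8%, 93.5% and 89.5% in NXT-Exo 1 to 5 and 61.3% in Ctl-Exo 5, the lowest of the 6. With 31 reads in Ctl-Exo 5 the interval was wide (43.8 to 76.3%) and overlapped that of NXT-Exo 1 (64.1 to 88.3%). The difference was 26.5 percentage points, against an SD of 7.30 points. Without NXT-Exo 1 the differences were 28.7 points for miR-301a and 16.7 points for miR-130b. In miR-130a the order was the reverse, with a 5p share of 6.50% in the control and 2.37% ± 1.78 (SD, n = 5) after NXT, but miR-130a-5p had at most 8 reads in any library.

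With 1 library against 5, an exact permutation test over the libraries cannot give a p below 0.167, which is the two-sided value it gave for the 5p share of miR-130b, miR-301a and miR-130a. Over the 114 hairpins, the control had a lower 5p share than any NXT-Exo library in 13 (11.4%) and a higher one in 21. Of the 3 family hairpins in that set, 2 were among the 13. The absolute difference in share had a median of 0.922 points over the 114 hairpins, and by its size miR-301a stood at place 4, miR-130b at place 7 and miR-130a, with the opposite sign, at place 28. That median includes many hairpins read almost wholly from 1 arm, whose share has little room to move. An absolute difference of at least 10 points occurred in 14 of the 114 hairpins, and in 6 of these the control was below every NXT-Exo library. Arm shares of hairpins other than miR-130b were added after the values had been seen.

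**Figure D3:**
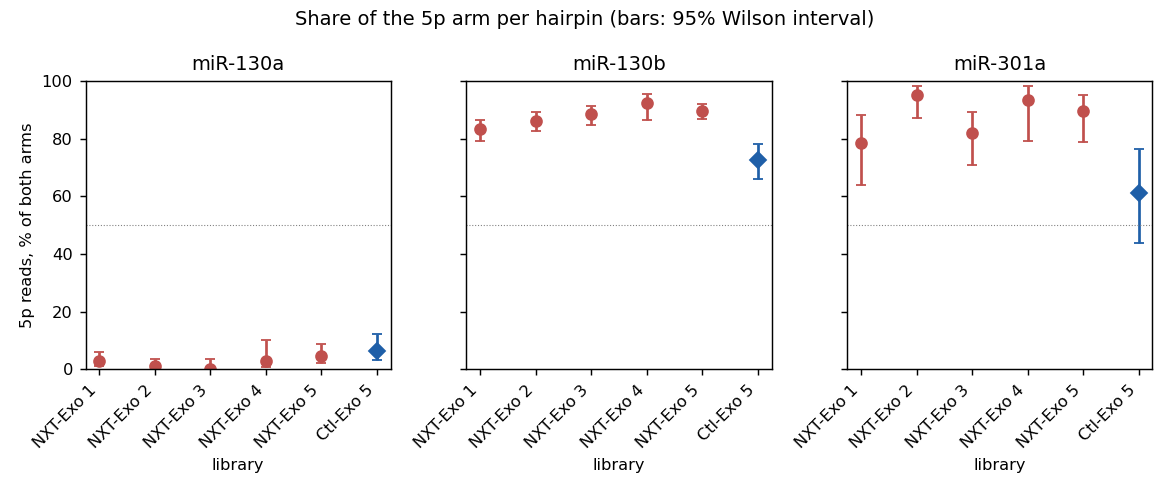
Share of 5p reads among the reads of both arms, in percent (vertical), for each library (horizontal) and for miR-130a, miR-130b and miR-301a, with 95% Wilson intervals. Ctl-Exo 5 (blue) is the lowest library for miR-130b at 72.5% and for miR-301a at 61.3%, and the highest for miR-130a at 6.50%.

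Taken over both arms, the reads of miR-130b overlapped between the groups, at 133 ± 18.5 CPM (SD, n = 5) in NXT-Exo with a range of 111 to 161 CPM, and at 113 CPM in the control. Both arms of miR-301a also overlapped, at 14.0 to 29.7 CPM against 16.9 CPM in the control. A sum of both arms cannot show opposite movement of the single arms, and 86.0% of the miR-130b reads came from its 5p arm. Of all reads of the 4 hairpins, miR-130b held 62.7%, miR-130a 27.5%, miR-301a 8.90% and miR-301b 0.887%. The neighbouring genes Mir130b and Mir301b thus differed widely in recovered reads, with 2050 against 29.

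The arms that are no members moved as follows. miR-301a-5p was at 11.0, 18.4, 24.3, 22.7 and 13.3 CPM in NXT-Exo 1 to 5 and 10.3 CPM, with an interval of 6.62 to 16.2 CPM, in Ctl-Exo 5. Each NXT-Exo library was above the control, 2 of them within its interval, and the log2 difference was 0.74 beside an SD of 0.46 (adjusted p = 0.873 in edgeR). miR-130a-5p had 6, 3, 0, 2 and 8 reads in NXT-Exo 1 to 5 and 8 in the control. miR-301b-5p had 5, 4, 2, 0 and 3 reads, and 0 in the control. A listed sequence named miR-130-x shares its first 19 bases with miR-130b-5p and had 6 reads in all, too few to alter the values of miR-130b-5p.

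Since a common seed can act on common targets, the 3p arms were also added together. They summed to 91.0, 87.9, 70.6, 61.8 and 60.5 CPM in NXT-Exo 1 to 5 and to 102 CPM in Ctl-Exo 5, the highest of the 6. The NXT-Exo mean was 74.4 ± 14.4 CPM (SD, n = 5). miR-130a-3p supplied 71.6% of the 1220 reads of these arms, miR-130b-3p 23.5%, miR-301a-3p 3.61% and miR-301b-3p 1.23%. On its own miR-130a-3p, the largest part, overlapped between the groups. After NXT miR-130a-3p made up 65.0 to 83.5% of these reads and in Ctl-Exo 5 61.5% (95% Wilson interval 54.4 to 68.2%), while miR-130b-3p made up 13.9 to 26.1% and 30.5% (24.3 to 37.4%). Ctl-Exo 5 lay outside the NXT-Exo range for both shares, although its interval overlapped those of 3 NXT-Exo libraries for miR-130a-3p (1, 3 and 5) and of 4 for miR-130b-3p (1, 2, 3 and 5). As these arms supplied nearly all of the reads, their shares are close to complementary and are not separate observations.

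**Figure D4:**
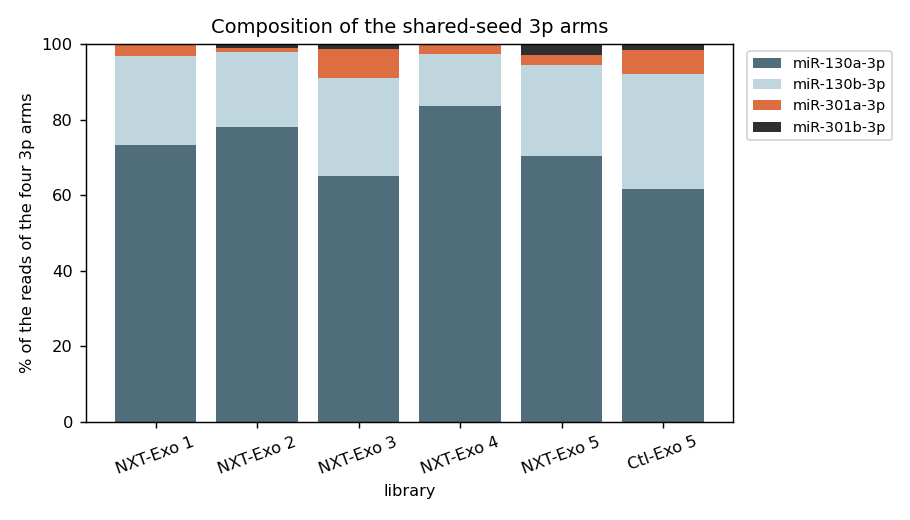
Reads of each shared-seed 3p arm as a percentage of the reads of all 4 (vertical) in each library (horizontal). miR-130a-3p is the largest part of every bar, between 61.5% in Ctl-Exo 5 and 83.5% in NXT-Exo 4.

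The family was also set beside miRNAs whose seeds overlap AGTGCAA in at least 6 bases, of which 5 rat miRNAs had reads. These were miR-148a-3p, miR-152-3p and miR-148b-3p, with the seed CAGTGCA, and miR-19b-3p and miR-19a-3p, with the seed GTGCAAA. miR-148a-3p was far more abundant than any member, at 15199 ± 1357 CPM (SD, n = 5) after NXT and 14923 CPM in the control. The 4 sequences with the exact family seed held 0.455% of the reads of all 9. Ctl-Exo 5 lay within the NXT-Exo range for the 3 miRNAs with the seed CAGTGCA and above it for both miR-19 miRNAs. Among the 467 miRNAs entered in edgeR, the control stood above every NXT-Exo library for 74 (15.8%) and at either end for 37.5%. Whether the overlapping seed had a part in the position of the miR-19 miRNAs was not tested. The log2 difference of miR-19a-3p was -0.79 (SD 0.29) and that of miR-19b-3p -0.26 (SD 0.22). The median over the 5 was -0.21.

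Markers of cells that release vesicles into blood were summed to show what else moved between the groups. Every marker was detected, but miR-802-5p, a liver marker, had 0 reads in Ctl-Exo 5 and in NXT-Exo 2. The liver list (3 miRNAs) was at 17431, 3308, 3729, 3379 and 6452 CPM in NXT-Exo 1 to 5, so that NXT-Exo 1 set the top, and lower in the control, at 2203 CPM. The list of platelets and white blood cells (4 miRNAs) was at 20705 to 24462 CPM after NXT and higher in the control, at 25676 CPM. The red blood cell, muscle and endothelial lists overlapped between the groups. The sums were mostly set by single miRNAs, miR-122-5p for liver, miR-142-5p for platelets and white blood cells and miR-486 for red blood cells. Their mean levels were 12.6, 14.2 and 17.7 on the log2(CPM + 1) scale, where the next in each list had 4.20, 11.4 and 11.1. Within the muscle list the log2 differences were -0.71 for miR-1-3p, 0.46 for miR-133a-3p, 0.92 for miR-133b-3p and 0.61 for miR-206-3p. The part of these lists in the differences of the miR-130 and miR-301 arms was not tested, and fewer vesicles of a source cannot be told apart from less miRNA per vesicle.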

How the data were processed

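Small RNA of serum exosomes was sequenced by the authors (TruSeq Small RNA, HiSeq) after Trizol extraction. Adapter dimers, low-complexity reads, other RNA families and repeats were removed with ACGT101-miR. The genome build in the submitters' processing notes is Rnor 6.0. The aligner and the miRNA database release are not given in the sources used here. As deposited, the table holds unnormalised read counts for each miRNA and TPM values that equal the counts multiplied by a constant per library, with 0 reads written as 0.01. Another 8 columns, under the names of 4 further Ctl-Exo libraries without sample labels here, were not used.

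TMM factors were calculated with edgeR 4.0.16 in R 4.3.3 over the 865 of 867 sequences with reads, and counts were scaled to CPM. The group difference is the log2 of the NXT-Exo mean CPM + 1, less that of the Ctl-Exo 5 CPM + 1. edgeR's quasi-likelihood test (DESeq2 1.42.0 as the alternative) was run where the mean over the libraries reached 10 reads (467 miRNAs). The test script was run on simulated counts with large changes only, which says nothing of its power for smaller ones. Python 3.11.15, numpy 2.4.6, pandas 2.3.3, scipy 1.17.1 and matplotlib 3.10.9 were used for the rest. Every pair of libraries differed by more than sampling noise (chi-square per degree of freedom of at least 38.1), so none was merged as a library deposited again, which does not show that they came from separate rats. No member shares its sequence with another listed name. The miRNAs named are all members, the other listed arms of their hairpins and the miRNAs with an overlapping seed. Also named are the 3 nearest in pattern to each member above the same minimum. Single markers from the cell lists were named after their values had been seen. Members and lists were chosen with earlier results of these data known.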

Additional observations from a re-analysis of the deposited data

Results flagged for a closer look

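Among 13 groups of 5 NXT-Exo values (the levels of the 5 members, the 5p shares of miR-130a, miR-130b and miR-301a, the shares of the 4 3p arms in their reads and the summed level of these arms), none held a library farther from the others than the critical value of 0.71 of the range.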

How the results depend on the processing

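No paired analysis was run, as the groups were separate rats. Among the labelled libraries only replicate number 5 occurs in both groups, and a shared number is no pairing. The log2 differences of the 4 members other than miR-301b-3p, which was at the floor, kept their direction under the 14 alternatives, of which those with deposited TPM and with miR-130-x added to miR-130b-5p were chosen after seeing the data. They ranged from 0.42 to 0.56 for miR-130b-5p, -1.02 to -0.65 for miR-130b-3p, -0.27 to -0.10 for miR-130a-3p and -1.55 to -0.41 for miR-301a-3p. With a pseudocount of 10 that of miR-301a-3p was -0.41 (-1.11 with a pseudocount of 1), and the number of members at least 2-fold apart fell from 1 to 0, as the larger pseudocount compresses low levels. When NXT-Exo libraries were left out singly, 0 to 2 members were this far apart, with 0 without NXT-Exo 2 and 2 without NXT-Exo 1. The order of the members by level was the same in every setting tried, and edgeR called 0 miRNAs in every setting. The reads of miR-130b-3p per read of miR-130b-5p (0.163) were 0.154 to 0.181 over these exclusions. The 5p share exceeded that of Ctl-Exo 5 by 14.4 to 16.7 points for miR-130b and 24.6 to 28.7 for miR-301a over the same exclusions, also chosen after seeing the data. Depth limits miR-301a-3p and miR-301b-3p, and the single Ctl-Exo library limits every comparison between the groups.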

Other observations

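The members were compared with the other rat-named miRNAs that had a mean of at least 10 reads by the root mean square difference of their centred log2(CPM + 1) values over the 6 libraries, where a smaller value means a more similar pattern. The arms of miR-130b were not among each other's nearest miRNAs. For miR-130b-5p the nearest of 289 miRNAs were miR-21-5p (0.10), miR-26b-3p (0.13) and miR-361-3p (0.16), whereas miR-130b-3p stood at place 251 (0.66), beyond the median of 0.36. For miR-130b-3p the nearest were miR-877 (0.25), miR-6328 (0.25) and miR-191a-5p (0.26), and miR-130a-3p, which shares its seed, stood at place 40 (0.47). Seen from miR-130b-3p, miR-130b-5p stood at place 165 (0.66), close to the median of 0.63. The measure is not scaled for spread, and miR-130b-3p varied more over the NXT-Exo libraries than miR-130b-5p (log2 SD 0.47 against 0.20). For miR-130a-3p the nearest were miR-425-3p (0.14), miR-296-3p (0.15) and miR-23a-3p (0.16), with miR-130b-5p at place 183 and miR-130b-3p at place 187. The smallest of 289 values over 6 libraries is partly a matter of selection, so these are descriptions of the libraries.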
